A study of Mus musculus and Homo sapiens with 12 samples.

Results

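Histone H3 lysine 18 butyrylation (H3K18bu) was set against acetylation of the same residue (H3K18ac) in mouse large intestine, by the genes that carried 1 mark, both or neither. All 4 CUT&Tag libraries with these labels were taken, 2 for H3K18bu and 2 for H3K18ac, of 12 libraries in the series. The tissue came from male CETP-ApoB-100 transgenic mice, 2 per condition, and is labelled colon epithelial although pieces of frozen whole large intestine were used, without a sort for epithelial cells. The labels give the mice of the H3K18ac libraries a high fat, high sucrose diet (HFHS) and those of the H3K18bu libraries the same diet with 5% of the dietary fiber arabinoxylan, which the label spells "aranbinoxyan". Acyl group and diet therefore change at the same time by these labels and cannot be told apart. The study's methods describe the fiber as given to the whole high fat, high sucrose group, with a control group on a low fat diet. The labels do not say which animal gave which library.

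Acyl groups on lysine 18 of histone H3 sit on the histone tail near active promoters and enhancers. Acetylation there is written by p300 and CBP, and acyltransferases of this kind can also use butyryl-CoA, so the residue can carry either group but not both on 1 histone copy. Butyrate, made by gut bacteria from dietary fiber, is a main fuel of colonocytes, which take it up by monocarboxylate transporters and oxidise it in mitochondria. CUT&Tag maps a mark by tethering a transposase to it with an antibody, so that the DNA nearby is cut and tagged.

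H3K18bu was found at gene ends of 16 of 44 general epithelial and absorptive colonocyte genes, 4 of 54 goblet, crypt, enteroendocrine and tuft genes and 14 of 152 respiratory chain and ribosomal genes. H3K18ac was at 20, 9 and 70 of them. Among protein-coding genes, 888 of 21887 (4.06%) carried both marks within 1 kb of a gene end, 608 (2.78%) carried H3K18bu without H3K18ac, and 4459 (20.4%) carried H3K18ac without H3K18bu. A gene counted as carrying a mark where a consensus region reached that window. A consensus region is the union of overlapping peaks from both replicates, so the peak of 1 replicate can end outside the window. The 2 marks need not lie at the same place or the same end, and of the 888 genes 715 had regions of both marks that overlapped. H3K18bu was thus at an end of 1496 genes (6.84%) and H3K18ac at an end of 5347 (24.4%).

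Upstream sequence of 5 genes is given as examples from these classes. Each run is the 250 bases before a start site in RefSeq, build GRCm38.p6, read 5′ to 3′ on the strand of the gene, with CG dinucleotides in capitals. Aoc1 (chr6:48895005-48895254, plus strand) and Gpa33 (chr1:166129971-166130220, plus strand) are epithelial genes with both marks and few CG dinucleotides. Cdx2 (chr5:147307250-147307499, minus strand), the caudal homeobox factor that specifies intestinal epithelium, had H3K18bu here and H3K18ac at its other end. Ndufb4 (chr16:37654369-37654618, minus strand), a subunit of respiratory complex I, carried H3K18ac alone, and Rplp2 (chr7:141447401-141447650, plus strand), a protein of the ribosomal stalk, H3K18bu alone.
Aoc1: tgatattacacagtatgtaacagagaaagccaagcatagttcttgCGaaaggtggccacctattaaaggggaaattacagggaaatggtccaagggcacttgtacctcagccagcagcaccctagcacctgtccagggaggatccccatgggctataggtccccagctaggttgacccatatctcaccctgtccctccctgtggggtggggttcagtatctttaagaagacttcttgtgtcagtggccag
Gpa33: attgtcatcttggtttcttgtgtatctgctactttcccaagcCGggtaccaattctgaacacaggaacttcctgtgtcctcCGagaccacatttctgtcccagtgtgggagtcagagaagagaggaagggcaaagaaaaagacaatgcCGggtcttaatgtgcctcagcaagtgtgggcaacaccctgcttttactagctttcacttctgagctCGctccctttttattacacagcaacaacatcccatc
Cdx2: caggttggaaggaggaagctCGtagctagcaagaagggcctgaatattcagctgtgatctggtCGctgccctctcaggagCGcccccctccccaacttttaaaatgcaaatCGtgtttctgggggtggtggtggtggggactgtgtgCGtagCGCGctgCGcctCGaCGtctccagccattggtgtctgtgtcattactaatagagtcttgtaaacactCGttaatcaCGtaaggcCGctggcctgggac
Ndufb4: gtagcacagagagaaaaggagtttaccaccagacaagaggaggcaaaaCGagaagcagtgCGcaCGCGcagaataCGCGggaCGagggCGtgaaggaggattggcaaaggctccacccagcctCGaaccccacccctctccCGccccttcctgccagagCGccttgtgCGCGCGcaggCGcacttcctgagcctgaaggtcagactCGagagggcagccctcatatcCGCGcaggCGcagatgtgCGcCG
Rplp2: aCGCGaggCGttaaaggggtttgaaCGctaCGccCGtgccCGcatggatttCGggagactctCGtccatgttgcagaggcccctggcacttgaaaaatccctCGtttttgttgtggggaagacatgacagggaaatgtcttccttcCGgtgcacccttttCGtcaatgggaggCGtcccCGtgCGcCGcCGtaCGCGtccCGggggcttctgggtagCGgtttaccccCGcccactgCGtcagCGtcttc
The Aoc1 and Gpa33 runs hold 1 and 4 CG dinucleotides, the Cdx2 run 13, the Ndufb4 run 21 and the Rplp2 run 24. Consensus regions of both marks covered all 250 bases at Aoc1, and the H3K18ac region alone did so at Ndufb4. At Gpa33 the H3K18bu region reached 22 of these bases and the H3K18ac region 131, since both lay mainly downstream of the start site. The H3K18bu regions reached 64 of the bases at Cdx2 and 14 at Rplp2.

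The lists differed in length and background before any gene was compared. The H3K18bu lists held 60813 and 50675 peaks and the H3K18ac lists 299840 and 299861, of which peaks overlapping within a list merged to 60776, 50645, 298592 and 298390 regions. The lowest local background, which can rise with sequencing depth but is at the same floor in all 4 butyryl lists of this tissue, was 0.0146 tags in both H3K18bu lists and 4.17 and 7.08 times that in the H3K18ac lists. Total read counts are not in the files used here.

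Most peaks rested on very few tags. The pileup of a peak, the number of tags stacked at its highest point, was 1 in 89.9% and 90.6% of H3K18bu peaks and in 72.1% and 52.0% of H3K18ac peaks. Replicates shared a small part of their regions: 14.0% and 16.8% of the regions of the H3K18bu lists overlapped the other replicate, and 15.4% and 16.0% did for H3K18ac. This left 8319 consensus regions of H3K18bu with a median width of 279 bp and 43739 of H3K18ac with a median of 334 bp. A pileup of 1 in the weaker replicate was found in 85.3% of the H3K18bu and 41.4% of the H3K18ac consensus regions. The absence of a mark at a gene below means that no region was detected in these lists.

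The H3K18ac lists were also limited in length, and the peaks at the lowest p, 216068 in replicate 1 and 155849 in replicate 2, all had a pileup of 1. In replicate 1 none of these tied peaks lay on X or Y, and in replicate 2 they lay on chromosomes 1 and 10 to 14 only. H3K18ac alone was found at 27.7% of protein-coding genes on those 6 chromosomes and at 18.6% on the other 13 autosomes. H3K18bu alone differed less, 2.59% against 2.96%. On X, where no tied peak was kept, the values were 6.21% for H3K18ac alone and 1.86% for H3K18bu alone, and 9 of the 27 genes with H3K18bu had H3K18ac.

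**Figure D1:**
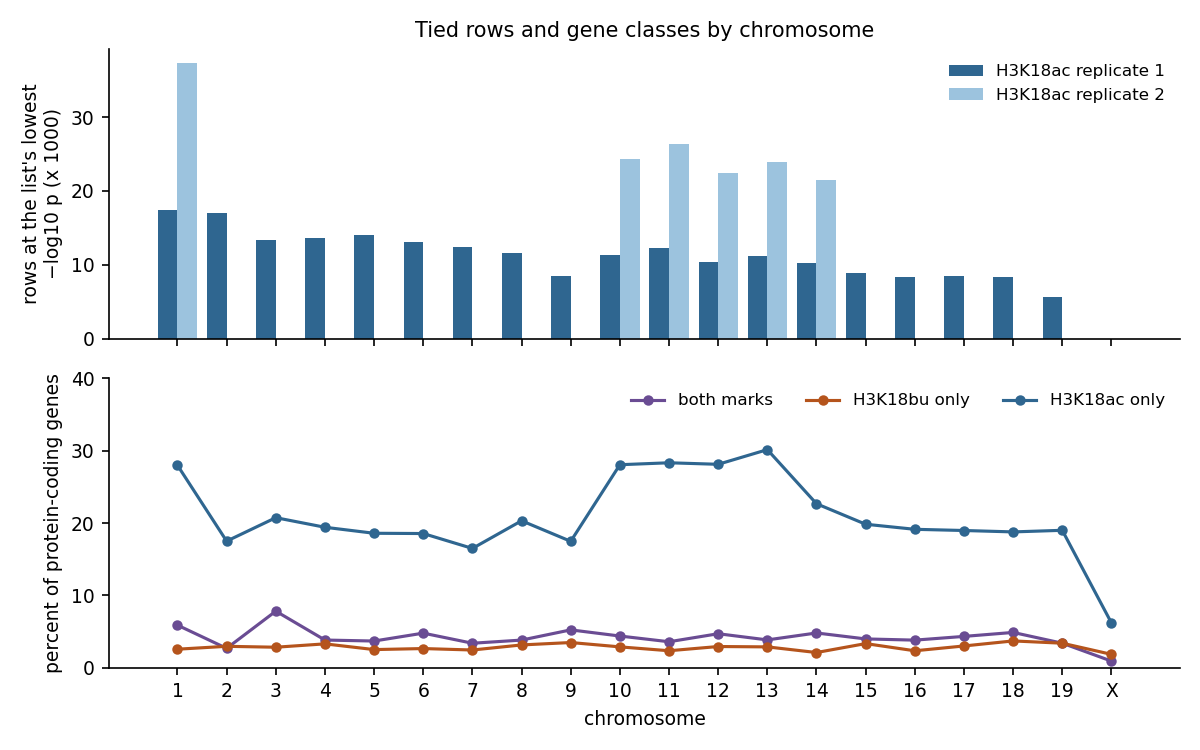
Top, number of H3K18ac peaks tied at the lowest −log10 p, by chromosome and replicate (axis in units of 1000). Bottom, percent of protein-coding genes in each class at gene ends, which for H3K18ac alone is 27.7% over the 6 chromosomes with tied peaks of both lists and 18.6% over the other autosomes.

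The question of where the marks coincide was first asked region by region. Of the H3K18bu consensus regions, 47.1% overlapped a consensus region of H3K18ac and 76.1% overlapped a peak of at least 1 H3K18ac replicate. In the other direction, 8.96% of H3K18ac regions overlapped an H3K18bu region and 30.0% a peak of at least 1 H3K18bu replicate. The remaining 1988 H3K18bu regions had no H3K18ac peak in either list.

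Coincidence rose with the strength of the region in both directions. H3K18bu was found at 0.723% of the 18115 H3K18ac regions with a pileup of 1 in the weaker replicate, at 4.59% of those with 2, 11.9% with 3, 20.0% with 4, 32.6% with 5 to 6 and 61.9% of the 1090 regions with 7 or more. H3K18ac was found at 42.1% of the 7095 H3K18bu regions with a pileup of 1, at 70.3% with 2, 89.2% with 3 and 97.9% of the 94 regions with 4 or more. Strong H3K18bu consensus regions without an H3K18ac consensus region were therefore few, 2 of 94. Each of the 4 pairings of a single H3K18ac list with a single H3K18bu list gave the same order. For H3K18ac regions they ran from 0.652% to 1.32% at a pileup of 1 and from 47.8% to 67.7% at 7 or more. For H3K18bu regions they ran from 21.7% to 24.0% at a pileup of 1 and from 83.0% to 87.7% at 4 or more. These lie below the 42.1% and 97.9% of the consensus regions. A tied peak has a pileup of 1, so the bins from 2 upward hold none.

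**Figure D2:**
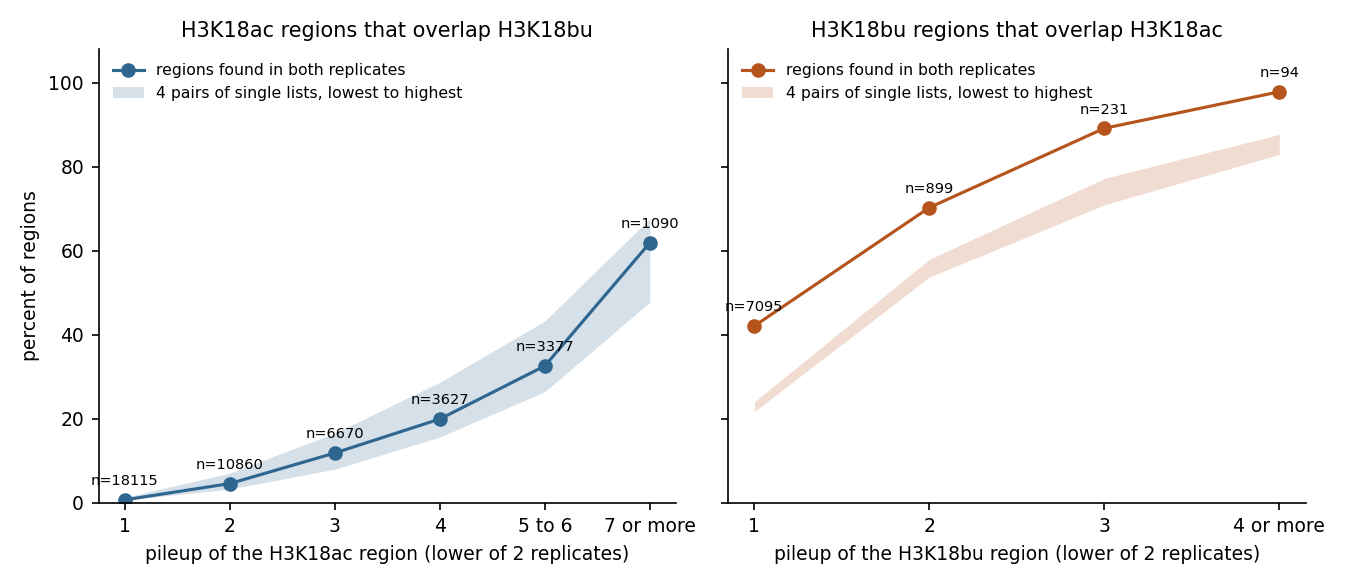
Percent of consensus regions (points, with their number) that overlap a consensus region of the other mark, by pileup in the weaker replicate, for H3K18ac (left) and H3K18bu (right). Bands span the 4 pairings of single lists. The share rises to 61.9% for H3K18ac and to 97.9% for H3K18bu.

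Shares at start sites and elsewhere were compared within each strength. Among H3K18ac regions of pileup 2, H3K18bu was found at 8.43% within 1 kb of a RefSeq start site and at 3.81% elsewhere. At a pileup of 7 or more the values were 60.8% of 97 regions and 62.0% of 993. In the other direction H3K18ac was at 46.3% of H3K18bu regions of pileup 1 at start sites and 41.2% elsewhere. From a pileup of 2 upward the order turned, with 60.7% against 72.2% at 2, 83.3% against 90.0% at 3 and 90.9% of 11 against 98.8% of 83 at 4 or more.

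H3K18bu regions lay closer to start sites. Of the consensus regions, 17.7% of H3K18bu and 11.9% of H3K18ac reached within 1 kb of a start site, 45.6% and 47.2% lay in gene bodies, and 28.4% and 33.5% lay outside genes. In the single lists the regions within 1 kb of either gene end made up 16.6% and 17.1% of H3K18bu and 10.5% and 11.2% of H3K18ac. The lists of the 2 marks did not overlap in this share, and the difference of the means was 5.92 percentage points (two-sided exact permutation test, n = 2 against 2, p = 0.333, the smallest the 6 assignments allow). The gap changed with the peaks that entered. It was 1.09 points without the tied H3K18ac peaks, and with the 50645 strongest regions of every list H3K18bu was 0.43 points lower (difference -0.43, exact permutation p = 0.667).

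**Figure D3:**
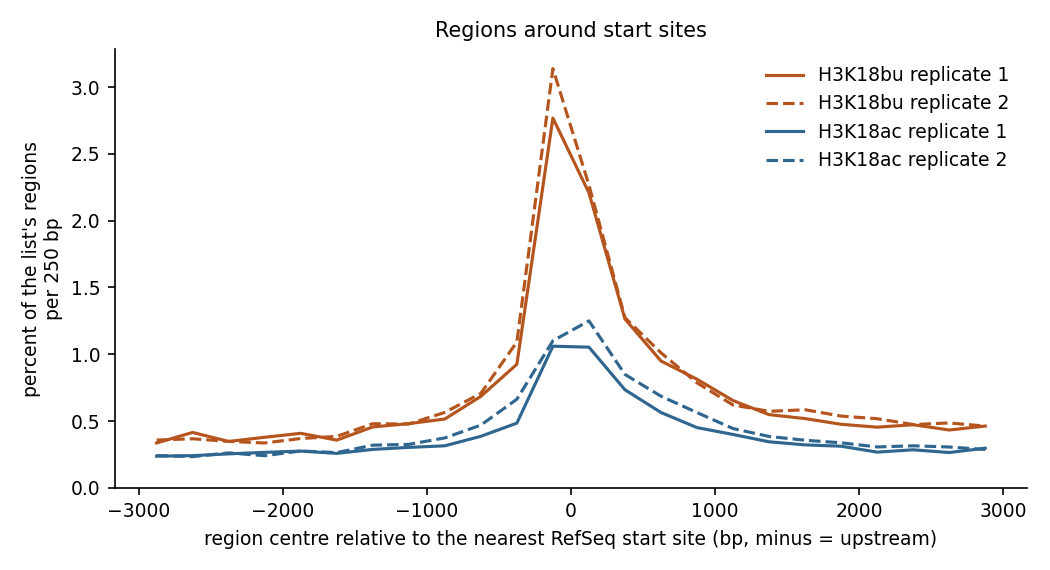
Percent of the regions of each list per 250 bp of distance from the nearest RefSeq start site, negative values upstream. All 4 lists peak beside the start site, and both H3K18bu lists stand above both H3K18ac lists there.

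The 10 protein-coding genes with both marks that ranked best in their worst list were Il7, Scarb2, Gpa33, Wls, Plin2, Ctsc, Sdcbp2, Aoc1, Pdlim5 and Gstk1. They are given as a description, since the ranking used these 4 lists.

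Gpa33 encodes the A33 antigen, a surface glycoprotein of intestinal epithelium. Its H3K18bu region (chr1:166130199-166130764) had a pileup of 5 in both replicates, and its H3K18ac region (chr1:166130090-166130890) had 17 and 15. The butyryl region lay wholly within the acetyl one, just downstream of the start of the gene (chr1:166130221-166166510, plus strand). Il7, a cytokine for lymphocytes that epithelial cells can make, had pileups of 5 and 5 for H3K18bu (chr3:7612607-7613249) and of 10 and 10 for H3K18ac. The region lay inside the gene (chr3:7572028-7613760), within 1 kb of its right end. Scarb2, a lysosomal membrane protein, had 6 and 4 for H3K18bu (chr5:92504557-92504959) and 14 and 17 for H3K18ac, centred 900 bp and 892 bp downstream of its start site. H3K18ac stood above H3K18bu in every one of these pairs, in lists with a higher background.

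Other genes of this group differed in where the region sat. Aoc1, the diamine oxidase that degrades histamine, had 3 and 4 for H3K18bu and 6 and 6 for H3K18ac across its start site. Ctsc, the lysosomal protease cathepsin C, had 4 and 6 for H3K18bu and 7 and 8 for H3K18ac, also at its start site. Wls, which carries Wnt ligands to the cell surface, had its strongest regions past its 3′ end, with 4 and 4 for H3K18bu and 7 and 7 for H3K18ac. Plin2, which coats lipid droplets, was uneven between replicates. Its best H3K18bu region had 1 and 6, and its H3K18ac region 7 and 9 at another place near the start site. Sdcbp2 (a syntenin), Pdlim5 (a cytoskeletal adaptor) and Gstk1 (a glutathione transferase) had 3 to 5 tags for H3K18bu and 4 to 14 for H3K18ac.

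**Figure D4:**
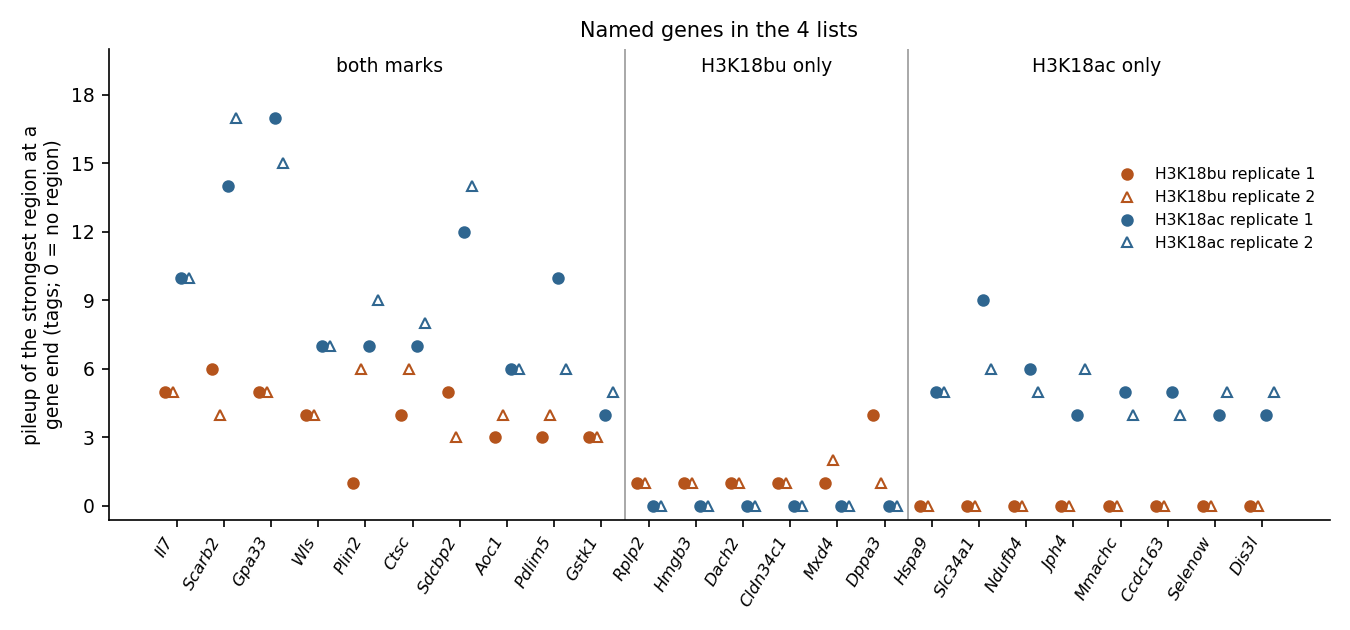
Pileup (tags) of the strongest consensus region at a gene end in each of the 4 lists, for 10 genes with both marks, 6 with H3K18bu and no H3K18ac peak, and 8 with H3K18ac and no H3K18bu peak. A value of 0 means no consensus region. H3K18bu reaches 6 in the first group and is 1 in all but 2 values of the second.

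H3K18bu without any acetyl peak was rare and weak. Of the 608 protein-coding genes with H3K18bu alone at an end, 557 had an H3K18ac peak of at least 1 replicate at an end, 409 had it over the H3K18bu region itself, and 268 had an H3K18ac consensus region in the gene. Only 7 had no H3K18ac peak of either replicate at the ends or in the body. The 6 of these with an assigned name were Rplp2, Hmgb3, Dach2, Cldn34c1, Mxd4 and Dppa3. Hmgb3 (a high mobility group protein), Dach2 (a transcription cofactor) and Cldn34c1 (a claudin family member) lie on X, where both H3K18ac lists lack their tied peaks. Rplp2 and these 3 genes had a pileup of 1 in each H3K18bu replicate. Mxd4, a repressor of the MAX network, had 1 and 2, and Dppa3, known from germ cells and early embryos, had 4 and 1. A class that rests on 1 tag per library carries a counting error as large as its value.

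Of the 4459 protein-coding genes with H3K18ac alone at an end, 1690 had an H3K18bu peak of at least 1 replicate over the H3K18ac region itself. H3K18ac without any butyryl peak was found at 907 of the 4459. Of the strongest 10 with an assigned name, 8 are described: Hspa9, Slc34a1, Ndufb4, Jph4, Mmachc, Ccdc163, Selenow and Dis3l. Hspa9, the mitochondrial HSP70, had a pileup of 5 in both H3K18ac replicates. Ndufb4 had 6 and 5 (chr16:37654278-37654745, over the start of the gene at chr16:37647602-37654368, minus strand). Slc34a1, a sodium phosphate cotransporter, had 9 and 6. Mmachc, which processes vitamin B12, and Ccdc163 start on opposite strands beside each other and share 1 region with 5 and 4. Selenow, a selenoprotein, Dis3l, a subunit of the cytoplasmic exosome, and Jph4, a junctophilin, had 4 to 6. At Jph4 the region lay past the 3′ end.

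These pileups matter for reading the absence of H3K18bu. At a H3K18ac pileup of 4 in the weaker replicate, an H3K18bu consensus region was found at 20.0% of regions. The absence of a consensus region is thus the more frequent outcome there. The 8 genes with H3K18ac alone lacked an H3K18bu peak of either replicate, a stricter absence that the 20.0% does not measure. The 10 genes with both marks had H3K18ac pileups of 4 to 17 and the 8 with H3K18ac alone had 4 to 9. The ranges overlap.

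The 3 genes that the study names for H3K18bu were also read. The study took them from annotated regions of its differential binding analysis on reads, H3K18bu against acetylation. Consensus peaks near or in a gene are another measure and do not test that result. Fgf14, a fibroblast growth factor family member that modulates sodium channels, had no consensus region of either mark at its ends, and 3 of H3K18ac and 0 of H3K18bu in its 703 kb. Akap9, a scaffold for protein kinase A, had H3K18ac near its start with 4 and 4 tags and, over the gene, 9 regions of H3K18ac and 3 of H3K18bu. Cyria, a regulator of RAC1 and actin, had H3K18ac near its start with 3 and 3 tags and, over the gene, 7 regions of H3K18ac and 2 of H3K18bu. At an end of Cyria, H3K18bu replicate 1 had a peak of 1 tag and replicate 2 none.

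Counted over whole genes with 1 kb on each side, 2851 protein-coding genes (13.0%) carried both marks, 491 (2.24%) H3K18bu alone and 7115 (32.5%) H3K18ac alone. Of the genes with H3K18bu, 85.3% then had H3K18ac, against 59.4% at gene ends. Length went with these counts. Genes with both marks over the body had a median length of 53.5 kb, those with H3K18ac alone 28.8 kb, those with H3K18bu alone 16.2 kb and those with neither 8.49 kb. Above the upper quartile of length, 44.3 kb, both marks were found in 29.1% of bodies, against 2.28% below the lower quartile of 5.67 kb. At the ends the same genes had 5.01% and 1.92%.

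Among the marker lists, those of general epithelium and absorptive colonocytes had the highest shares with H3K18bu. Of 44 genes in the pan-epithelial and absorptive colonocyte lists, 16 (36.4%) had H3K18bu at an end and 20 (45.5%) had H3K18ac, against 6.84% and 24.4% of all protein-coding genes. Of 80 markers of smooth muscle, fibroblasts, immune cells, endothelium and enteric neurons or glia, 0 had H3K18bu and 14 (17.5%) had H3K18ac. Of these 14 genes, 8 had an H3K18ac pileup of 1 and 5 a pileup of 2, where H3K18bu was at 5.91% and 11.4% of all protein-coding genes with H3K18ac. The other, Synpo2, an actin-binding protein of muscle, had 7 and 7, in the bin of 4 or more, where H3K18bu was at 364 of 910 protein-coding genes with H3K18ac. In single replicates, H3K18bu peaks reached 30 and 35 of the 44 epithelial genes, 12 and 9 of the 80 others, and 5857 and 5160 of the 21887 protein-coding genes. With a pileup of at least 2 in every list, H3K18bu was at 6 of the 44 (13.6%), 0 of the 80 and 0.978% of all protein-coding genes, and with q below 0.05 it was at 0 of the 44 and 0.0822% of all, a background too low for this count to be read. In whole tissue, few cells of a type and little of the mark in each cell cannot be told apart. Over gene bodies, 5 of the 80 had regions of both marks, Mylk, Synpo2, Itgam, Vwf and Syt1, and 23 of the 44 did, against 13.0% of all protein-coding genes.

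Within the pan-epithelial list, H3K18bu was at 9 of 24 genes. Both marks were at 5 of them. Krt8, a keratin of simple epithelium, had pileups of 3 and 2 for H3K18bu and 6 and 7 for H3K18ac, with the former at its 3′ end and the latter beside its start site. Vil1, the actin bundler villin, had 4 and 1 against 8 and 13. The caudal factors Cdx1, with 4 and 2 against 9 and 13, and Cdx2, with 2 and 3 against 5 and 6, and the galectin Lgals4, with 4 and 1 against 6 and 4, were the others with both. Krt19, Elf3, Grhl2 and Klf5 had H3K18bu alone. Krt19 and Elf3 had an H3K18ac peak in replicate 2 at an end and none in replicate 1, while Klf5 had none in either. Grhl2 had H3K18ac peaks of 2 and 3 tags at its ends. The adhesion and tight junction genes Epcam, Cldn3, Cldn4, Cldn7 and Ocln had H3K18ac alone, with 2 to 7 tags. H3K18bu peaks that formed no consensus region were still at their ends. Cldn3, Cldn4 and Ocln had 1 tag in each H3K18bu replicate, and Epcam had 3 and Cldn7 1 in replicate 2 only. Over the body Epcam and Ocln had both marks.

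Among 20 absorptive colonocyte genes, 4 had both marks, 3 H3K18bu alone and 6 H3K18ac alone. Myo1a, the brush border myosin, had 3 and 3 for H3K18bu and 5 and 4 for H3K18ac, and Ceacam20, Plac8 and Emp1 also carried both. Guca2a, the precursor of guanylin, had 3 and 2 for H3K18bu. It counted as H3K18bu alone although each H3K18ac list had a peak of 7 tags at its ends, because those peaks did not overlap each other. Car2, a carbonic anhydrase, and Cdhr2, a protocadherin of the brush border, were the other members with H3K18bu alone. Car2 too had H3K18ac peaks at its ends, of 3 and 6 tags. Cdhr2 had one of 6 tags in replicate 2 only, and both marks over the body. The bile acid transporter subunits Slc51a and Slc51b and the fatty acid binding protein Fabp2 had H3K18ac alone, with 4 to 6 tags.

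In secretory and crypt lists H3K18bu was near its share of 6.84% among all protein-coding genes. It was at 2 of 17 goblet genes, Atoh1 (the secretory lineage factor) and Galnt12 (which starts mucin glycans), both with H3K18ac. Of 20 stem and crypt genes, Sox9 alone had H3K18bu, with 1 and 1 tags, while the stem cell genes Lgr5, Ascl2, Smoc2 and Znrf3 and the replication factor Pcna had H3K18ac alone. Of 17 enteroendocrine and tuft genes, only Sh2d6 had a region at an end, of H3K18bu. Over the body it had both marks, and Chga, Pou2f3 and Avil had H3K18ac alone. H3K18ac was at an end of 9 of the 54 genes of these lists (16.7%), against 24.4% of all protein-coding genes. Lists of this size hold few genes, so a difference of 1 or 2 members is not read further.

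Of 77 oxidative phosphorylation genes, 39 had H3K18ac alone, 4 both and 4 H3K18bu alone, and of 75 ribosomal protein genes the counts were 25, 2 and 4. By consensus H3K18bu was thus at 10.4% of the first list and 6 genes of the second, near the 6.84% of all protein-coding genes. H3K18ac was at 55.8% and 36.0%, above its 24.4%. In single replicates, H3K18bu peaks reached 42 and 27 of the 77 genes, against 5857 and 5160 of the 21887 protein-coding genes. The first list stood above that background there, and the second had 21 and 19 of 75. H3K18ac regions of these 2 lists were weaker than those of the epithelial genes. Their median pileup was 2 in both lists, against 4 in the 2 epithelial lists together. At an H3K18ac pileup of 4 or more, H3K18bu was at 8 of 15 epithelial genes, 2 of 9 respiratory chain and ribosomal genes, and 364 of 910 protein-coding genes. At a pileup of 3 it was at 1 of 3, 0 of 14 and 215 of 1070 (20.1%), and at a pileup of 2 at 0 of 2, 2 of 28 and 229 of 2013 (11.4%). At a pileup of 1 it was at 2 of 19 respiratory chain and ribosomal genes and 80 of 1354 protein-coding genes (5.91%), and no epithelial gene was in that bin. Few genes stood in these bins. With the same number of strongest regions per list, H3K18bu was at 31.8% of the epithelial and 8.55% of the respiratory chain and ribosomal genes, and H3K18ac at 29.5% and 19.7%. Of all protein-coding genes, 5.91% had H3K18bu and 8.97% H3K18ac at that setting.

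Genes for handling butyrate itself carried both marks at 5 of 25 (20.0%), against 4.06% of all protein-coding genes. H3K18ac, with or without H3K18bu, was at 13 of them (52.0%), against 24.4% of all. Acadm, the medium-chain acyl-CoA dehydrogenase, had 3 and 3 for H3K18bu and 4 and 3 for H3K18ac. Slc16a1, the monocarboxylate transporter MCT1, had 1 and 1 against 2 and 2. Acss1, an acetyl-CoA synthetase, and Cpt1a, of fatty acid import into mitochondria, had 1 to 2 tags of H3K18bu against 4 to 7 of H3K18ac. The other 8 genes with a region had H3K18ac alone, among them the receptor Ffar3, the trifunctional protein genes Hadha and Hadhb, and Pparg with 6 and 12 tags. No gene of this list had H3K18bu alone.

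In lists for the processes the study names, the share with H3K18bu was 32.1% for the actin cytoskeleton, 10.7% for cell-substrate junctions and 7.41% for autophagosome assembly, against 6.84% of all protein-coding genes. The last 2 lie near that background by consensus regions only. In single replicates, H3K18bu peaks reached 14 and 10 of the 28 junction genes and 14 and 8 of the 27 autophagosome genes. They reached 19 and 17 of the 28 actin genes, and 5857 and 5160 of the 21887 protein-coding genes. Of 28 actin cytoskeleton genes, 9 had H3K18bu and 9 had H3K18ac, 4 of them both. The small GTPase genes Rhoa and Rhob and the Arp2/3 subunit gene Actr3 carried both, while Wasl, an activator of that complex, had H3K18bu alone with 2 and 3 tags. Of 28 cell-substrate junction genes, 3 had H3K18bu and 13 H3K18ac. Itga6, an integrin of the hemidesmosome, and Fermt1, the epithelial kindlin, carried both, and the kinase gene Src had H3K18bu alone with 3 and 3 tags and an H3K18ac peak of 9 tags in replicate 2 only. Of 27 autophagosome assembly genes, 2 had H3K18bu, Rb1cc1 and Atg10, and 13 had H3K18ac. The shares with H3K18ac were thus 32.1%, 46.4% and 48.1% in the 3 lists, against 24.4% of all protein-coding genes. These lists were written from the processes named for these samples and are not independent of them.

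In the remaining lists the share with H3K18bu ran from 3.57% to 27.3%, against 6.84% of all protein-coding genes. It was at 6 of 22 immediate early and KLF genes, 5 of 26 Wnt and TGF-beta genes, 3 of 23 ion transport genes and 1 of 28 histone acyltransferase and deacylase genes. H3K18ac was at 8, 6, 7 and 6 genes of these lists (36.4%, 23.1%, 30.4% and 21.4%), against 24.4% of all protein-coding genes. Atp1b1, the beta subunit of the sodium pump, was the strongest of these, with 5 and 6 for H3K18bu and 5 and 8 for H3K18ac. Hdac2, a histone deacetylase that butyrate inhibits, had both marks with 2 and 1 against 4 and 5, and Ep300 had H3K18ac alone with 4 and 4. The TGF-beta receptor gene Tgfbr2 had both, and Smad3 and Smad4 H3K18bu alone.

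Sensory receptor genes and long neuronal genes were read for comparison, without a measure of their expression in this tissue. Of 1106 olfactory receptor genes, 2 had H3K18bu (0.181%) and 23 had H3K18ac (2.08%), and of 353 vomeronasal receptor genes, 1 and 4, against 6.84% and 24.4% of all protein-coding genes. In single replicates H3K18bu peaks reached 30 and 18 olfactory receptor genes and H3K18ac peaks 236 and 109. The same single lists reached 5857 and 5160 of the 21887 protein-coding genes for H3K18bu and 12571 and 11564 for H3K18ac. Of 30 long neuronal genes none had either mark at its ends, while 6 had both, 1 H3K18bu alone and 17 H3K18ac alone over the body, at a median length of 1221 kb. Of all protein-coding genes 13.0%, 2.24% and 32.5% were in these classes over the body, and of those longer than 44.3 kb, 29.1%, 1.57% and 46.2%. Single lists and long gene bodies thus reached more of these genes than regions of both replicates at an end did.

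**Figure D5:**
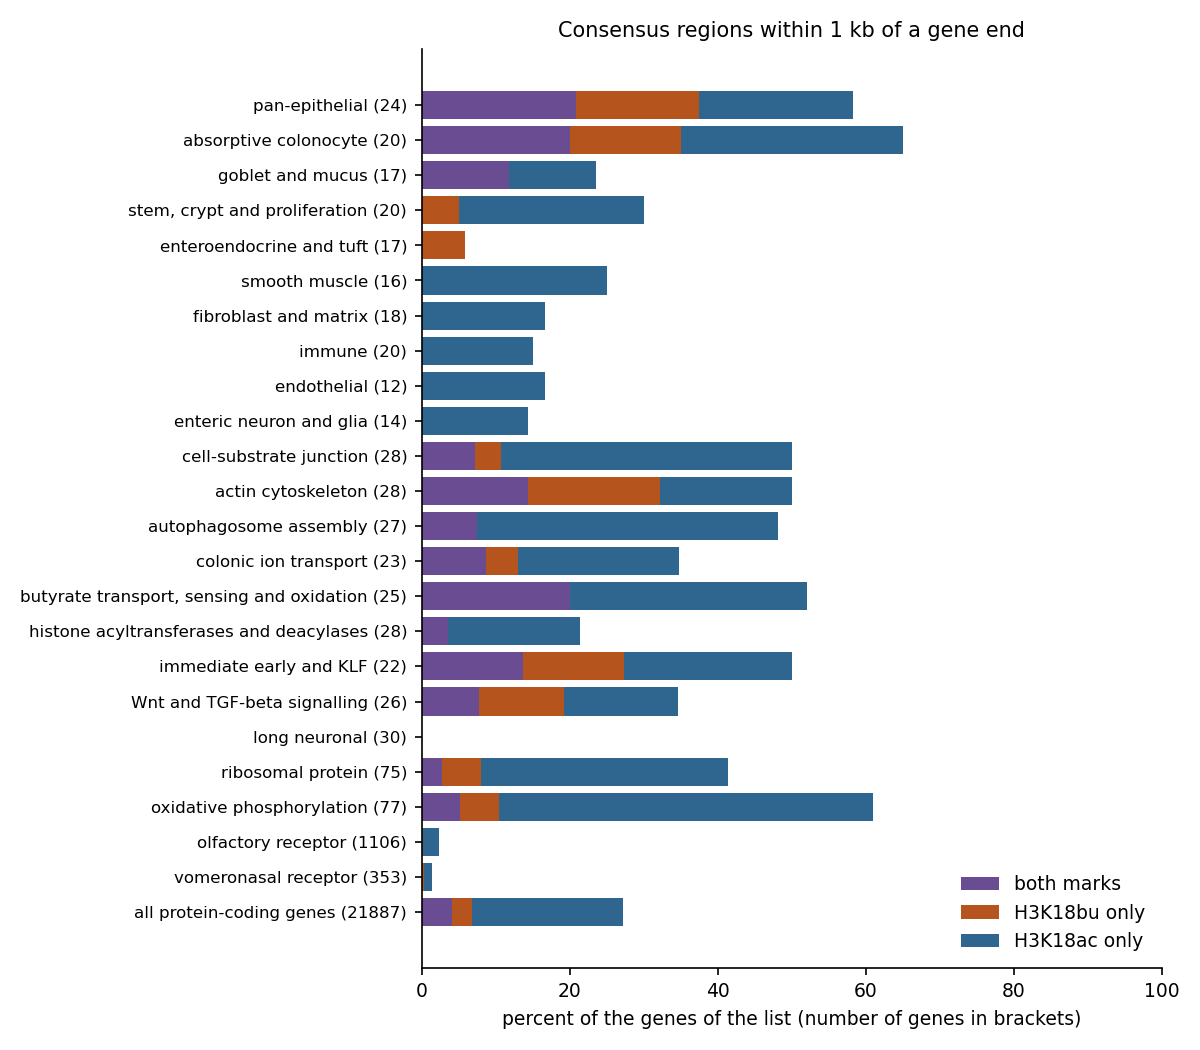
Percent of the genes of each list (number of genes in brackets) with both marks, H3K18bu alone or H3K18ac alone in a consensus region within 1 kb of a gene end. Epithelial lists reach 37.5% and 35.0% for H3K18bu, and the 5 lists from smooth muscle to enteric neuron and glia have 0.

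The other residue measured in this tissue, H4K12, gave a readout from separate libraries. H4K12bu was at an end of 58.8% of the genes with both H3K18 marks, 42.8% of those with H3K18bu alone, 31.1% of those with H3K18ac alone and 8.85% of those with neither. H4K12ac was at 64.9%, 40.6%, 52.3% and 18.4%. Genes with H3K18bu alone thus carried H4K12bu more often than genes with H3K18ac alone and H4K12ac less often. In each of the 4 single H4K12 lists the direction was the same, 65.5% against 52.3% and 84.5% against 71.9% for H4K12bu, and 69.7% against 77.0% and 85.4% against 86.3% for H4K12ac. When 1 H3K18bu list stood alone for that mark, the H4K12bu difference turned to -4.04 and -1.41 points. By the labels the H4K12bu and H3K18bu mice had the fiber diet and the acetyl mice did not, so acyl group and diet cannot be told apart here. The H4K12ac lists were limited in length as the H3K18ac lists were, at 299778 and 299623 peaks. Of these, 158414 and 38445 were tied at the lowest p. The limit is thus shared by both acetyl marks, and its part in the H4K12ac shares was not tested. No test was made, since genes are not replicates.

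Promoters of the 3 marked classes were alike in composition. Over the 300 bases from 250 before to 50 after each RefSeq start site, median GC content was 61.3% with both marks, 63.0% with H3K18bu alone, 60.7% with H3K18ac alone and 54.3% with neither. The median number of CG dinucleotides was 20, 21.5, 20 and 9, against 13 over all 21263 start sites of protein-coding genes. Here a start site was classed by consensus regions within 1 kb of it. The marked classes differed from the unmarked one far more than from each other.

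Of 10 short motifs searched on both strands, 4 differed by at least 5 percentage points between the unmarked class and each marked one. The GC box GGGCGG was in 63.7%, 68.5%, 62.1% and 40.4% of promoters in that order, and in 46.2% of all. The TATA box TATAAA was in 6.51%, 5.56%, 6.56% and 14.7%, and in 12.6% of all. The ETS core CCGGAA was in 25.8%, 23.4%, 27.8% and 15.8%, and in 18.7% of all. The GATA motif AGATAA was in 5.55%, 5.39%, 5.49% and 11.1%, and in 9.65% of all. The other 6 differed by less. The E box CACGTG was in 10.3%, 6.90%, 9.40% and 7.35% and the CCAAT box, CCAAT, in 36.8%, 39.1%, 36.1% and 38.8%, with 7.84% and 38.2% of all. The AP-1 site TGANTCA was in 5.43%, 6.40%, 5.71% and 7.41% (6.99% of all), and the cyclic AMP response element TGACGTCA in 3.62%, 2.36%, 3.11% and 1.94% (2.23% of all). The HNF4 motif CAAAGTCCA and the YY1 motif AAGATGGCG were in under 3% of every class, and in 0.451% and 1.83% of all. A match is a description of these letters and not of a bound factor. CG content went with the co-occurrence of the marks among weak H3K18ac regions and not among stronger ones. At an H3K18ac pileup of 1, H3K18bu was at 0.885% of start sites with under 10 CG dinucleotides, 6.27% with 10 to 19 and 6.67% with 20 or more. At a pileup of 2 these shares were 8.64%, 9.89% and 12.9%. At a pileup of 3 they were 21.6%, 24.0% and 22.7%, and at 4 or more 41.8%, 39.9% and 39.9%.

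Some of the strongest regions were high in every mouse list, and they stay in the counts above. At chr11:3135453-3135852, in Sfi1, the pileups were 31 and 28 for H3K18bu, 31 and 29 for H3K18ac, 25 and 27 for H4K12bu and 17 and 40 for H4K12ac. At chr17:13552078-13553212, in 2700054A10Rik, they were 21 and 11, 46 and 60, 16 and 22, and 111 and 355. By contrast the H3K18ac region in Mical2 (chr7:112255255-112255731) had 19 and 29 for H3K18ac and 3 and 3 for H3K18bu.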

How the data were processed

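CUT&Tag peak lists of mouse large intestine were analysed, 1 list per library, with 2 H3K18bu and 2 H3K18ac libraries and the 4 H4K12 libraries as a second readout. Libraries from the CCD841 cell line were not used here. The submitters' processing notes name the builds hg38 and mm10 and the tools bcl2fastq 2.17.1, cutadapt 1.9.1, Bowtie2 2.3.1 and MACS2 2.1.0. The study's methods describe the ENCODE ATAC-seq pipeline and a differential binding analysis on reads, which was not repeated because the lists hold no reads. The authors deposited, for each peak, a fold ratio, which compares its signal with the background around it in that library. They also deposited the −log10 p and −log10 q of the same test. Replicates were not pooled, and no input or IgG library was used here.

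The deposited ratio, (pileup + 1) / (background + 1), and the deposited −log10 p, a Poisson upper tail, were solved together for the whole pileup, and 100% of peaks in each list were solved within 0.01. The solver was tested on simulated data. Overlap meant at least 1 bp and was tested against bedtools. Peaks were merged within a list, and consensus regions were unions of overlapping peaks with a peak of each replicate. Genes and start sites were those of RefSeq GRCm38.p6, the assembly behind mm10 (49943 genes, 21887 protein-coding, 27025 with a start site). Windows were 1 kb around each gene end, or the gene with 1 kb on each side.

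Class counts have no test, because each mark has 2 lists and genes are not replicates. Where nothing ties libraries to animals, spread between replicates may be technical. Counting error alone limits a pileup of 1. The members and gene lists were chosen with earlier results of these data known. Named genes were protein-coding genes with an assigned symbol: the 10 with the best worst rank over the 4 lists among those with both marks, up to 10 with the highest lower −log10 p among those with 1 mark and no peak of the other mark in the gene, the 3 genes the study names, and up to 4 members of each list by the same rules. Other list members and the strongest regions in the text were chosen after their values were seen. Some genes that these rules take are not reported here. Alternatives were q below 0.05, a pileup of at least 2, no tied H3K18ac peaks, the 50645 strongest regions per list, a peak in either replicate, overlap by a share of 0.5 of the shorter region, 3 kb windows, protein-coding genes only, and each replicate left out. Permutation within replicate numbers and the start site window were added after the lists had been seen. Software was scipy 1.17.1, matplotlib 3.10.9, pandas 2.3.3 and numpy 2.4.6 under Python 3.11.15.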

Additional observations from a re-analysis of the deposited data

How the results depend on the processing

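Class counts moved with what entered the lists, and they describe these lists and not the number of genes that carry a mark. Over all 49943 genes, the counts with both marks, H3K18bu alone and H3K18ac alone at gene ends were 1315, 886, 6860. With q below 0.05 they were 20, 13, 1425. With a pileup of at least 2 they were 243, 95, 5681. Without tied H3K18ac peaks they were 1213, 988, 4711. With the same number of strongest regions they were 682, 1183, 2201. With a peak in either replicate they were 11436, 1770, 18072. With 3 kb windows they were 2358, 1052, 10680. For protein-coding genes only they were 888, 608, 4459. Over gene bodies the same counts were 3776, 775, 11000. With q below 0.05 the body counts were 105, 21, 3503. With a pileup of at least 2 the body counts were 787, 83, 9902. Without tied H3K18ac peaks the body counts were 3550, 1001, 7139. With the same number of strongest regions the body counts were 2341, 1646, 3773. With a peak in either replicate the body counts were 19530, 993, 15272. With 3 kb windows the body counts were 4370, 845, 12814. For protein-coding genes only the body counts were 2851, 491, 7115. Overlap by a share of 0.5 kept every class count within 1.5 times. The share of H3K18bu regions over H3K18ac, 47.1%, was 76.3% with q below 0.05, 74.7% with a pileup of at least 2, 45.6% without tied H3K18ac peaks, 34.2% with the same number of strongest regions, 36.3% with a peak in either replicate and 43.9% with overlap of a share of 0.5. The share of H3K18ac regions over H3K18bu, 8.96%, was 2.42% with q below 0.05, 3.59% with a pileup of at least 2, 14.8% without tied H3K18ac peaks, 19.3% with the same number of strongest regions, 6.75% with a peak in either replicate and 8.14% with overlap of a share of 0.5. The difference in H4K12bu share between genes with both marks and with H3K18ac alone, 27.7 points, was 17.3 with q below 0.05, 30.7 with a pileup of at least 2, 23.9 without tied H3K18ac peaks, 23.0 with the same number of strongest regions, 31.8 with a peak in either replicate, 28.9 with 3 kb windows and 25.2 with overlap of a share of 0.5. For H3K18bu alone minus H3K18ac alone, 11.6 points, it was 28.4 with q below 0.05, 22.5 with a pileup of at least 2, 10.3 without tied H3K18ac peaks, 6.67 with the same number of strongest regions, 5.33 with a peak in either replicate, 13.2 with 3 kb windows and 14.4 with overlap of a share of 0.5. Epithelial genes with H3K18bu, 16 of 44, were 0 with q below 0.05, 6 with a pileup of at least 2, 16 without tied H3K18ac peaks, 14 with the same number of strongest regions, 38 with a peak in either replicate, 21 with 3 kb windows and 15 with overlap of a share of 0.5. Respiratory chain and ribosomal genes with H3K18ac alone, 64 of 152, were 19 with q below 0.05, 50 with a pileup of at least 2, 47 without tied H3K18ac peaks, 28 with the same number of strongest regions, 59 with a peak in either replicate, 74 with 3 kb windows and 55 with overlap of a share of 0.5. The causes were not tested.

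With 1 replicate left out, the remaining list stood alone for its mark. At gene ends, both marks ran from 1880 to 3717, H3K18bu alone ran from 287 to 5363 and H3K18ac alone ran from 4458 to 20862. Over bodies, both marks ran from 4421 to 9997, H3K18bu alone ran from 113 to 6117 and H3K18ac alone ran from 4779 to 26534. The share of H3K18bu regions over H3K18ac ran from 16.0% to 62.1% and the converse ran from 1.79% to 20.9%. The H4K12bu differences ran from 17.7 to 34.9 points for both marks and from -4.04 to 16.4 points for H3K18bu alone, reversed without either H3K18bu replicate (-4.04 and -1.41 points). Epithelial genes with H3K18bu ran from 16 to 35 and respiratory chain and ribosomal genes with H3K18ac alone ran from 32 to 107. The excess of H3K18bu regions near gene ends ran from 5.58 to 6.27 points.

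The share of regions near gene ends reversed in 1 setting, the same number of strongest regions (-0.43 points), and kept its direction in the others. The labels number the replicates of both marks, but nothing says that a number marks a shared animal. With the replicate block, permutation within replicate numbers, the difference was 5.92 points with exact p = 0.5, the smallest that 4 assignments allow, so neither form can pass a threshold of 0.05. Of the 26 genes named for their class, 16 kept it with q below 0.05. Read totals were not available, so how far depth limits the absences was not tested, and a pileup of 1 is 1 tag.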
